A study of Mus musculus with 32 samples.

Results

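Interscapular brown adipose tissue (BAT) and epididymal white adipose tissue (eWAT) of the same kind of mouse were compared across all measured genes. The members are the 8 arrays of wild-type animals in these depots, 4 of BAT and 4 of eWAT, chosen by the tissue and genotype of their labels, out of 32 arrays in the study. The animals were male C57BL/6J mice wild type for *Gpr146*, an orphan G protein-coupled receptor, and were littermates of whole-body knockouts. They were 20 weeks old, had been on a high-fat diet since 3 months before collection and were fasted overnight at its end, so that every value here comes from fasted males on that diet and no lean or cold-exposed group stands beside them. RNA of each depot was hybridized to an Affymetrix Mouse Gene 2.1 ST array, which reads probes along the whole transcript. The knockouts of the same depots (8 arrays) and the wild-type inguinal white fat (iWAT, 4 arrays) are used below as further samples. Per the labels, the mice of a genotype are numbered 1 to 4 in every depot, so that arrays of the same number share a mouse.

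Brown adipocytes burn fatty acids and glucose to make heat: noradrenaline from sympathetic nerves acts on adrenergic receptors, cAMP rises, lipid droplets are broken down, and UCP1 lets protons back across the inner mitochondrial membrane without making ATP. White adipocytes store triglyceride in a large droplet, hold few mitochondria and secrete leptin and other adipokines. In obese mice, eWAT is also known for a large population of macrophages, many of them loaded with lipid around dying adipocytes, and it is wrapped in a mesothelium, which the interscapular depot lacks.

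The authors deposited log2 values in a table for each tissue, and the tables have different medians: the BAT arrays lay between 2.82 and 2.85 and the eWAT arrays between 3.14 and 3.18. The 8 arrays were therefore quantile normalized together, which gives every array the same distribution. A uniform shift between depots is removed by this step, and depot and table cannot be told apart. Arrays of BAT correlated with each other with r of 0.987 to 0.991 across genes, those of eWAT with 0.993 to 0.995, and arrays of different depots with 0.885 to 0.893; genes are not independent replicates. BAT arrays 2 and 3 stood apart by skeletal muscle transcripts and iWAT arrays 1 and 2 by lymphocyte transcripts. Among the knockouts, eWAT array 2 stood apart by macrophage transcripts and BAT array 2 by muscle transcripts. Values without these arrays are given where they bear on a result. The deposited values hold no detection call, so whether a low level lies above background is unknown. With 4 arrays a depot, precision is limited. The p-values set each difference against the spread between the arrays within a depot, and the main fit has no mouse term.

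At an adjusted p below 0.05 (limma, Benjamini-Hochberg over 24646 genes), 14011 genes (56.8%) differed between the depots, 7487 (30.4%) higher and 6524 (26.5%) lower in BAT. The ranges of the depots did not overlap in 13107 genes (53.2%). Because so many genes passed, lists are counted below by a second rule that also asks for a difference of at least 1 on the log2 scale (2-fold): 1896 genes (7.69%) were higher and 2121 (8.61%) lower in BAT by that rule. The median over all genes was 0.03. Differences of 5 or more on the log2 scale were found in 17 genes in each direction. With the values as deposited, 3789 genes were higher and 12125 lower in BAT, and the median of all genes was -0.22. The lists were chosen with results of these data known, so their counts and medians are descriptions. In bulk tissue, fewer cells of a type and less RNA per cell cannot be told apart.

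*Ucp1*, the uncoupling protein that defines brown fat, had the largest difference of all genes. Its log2 level was 11.24, 11.38, 11.19 and 11.38 in the 4 BAT arrays and 2.44, 2.87, 2.44 and 2.50 in the 4 eWAT arrays. The means were 11.3 ± 0.10 (SD, n = 4) and 2.56 ± 0.21 (SD, n = 4), a difference of 8.73 (standard error 0.10, adjusted p = 9.6e-12). *Cidea*, a lipid droplet protein, followed with 10.85, 11.04, 10.99 and 11.10 in BAT against 3.21, 3.26, 3.13 and 2.83 in eWAT, a difference of 7.89 (standard error 0.10). Next came the cytochrome c oxidase isoforms *Cox7a1* (difference 7.87) and *Cox8b* (7.64), both of which are the heart and muscle forms that brown fat also uses. *Cox7a1* measured 10.33 to 10.49 in BAT and 2.26 to 2.84 in eWAT, and *Cox8b* 10.62 to 10.75 and 2.69 to 3.32. The depots did not overlap in any of these genes, and the spread within a depot was small beside the gap between depots.

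The other genes among the 15 largest differences toward BAT were of mixed roles. *Elovl3* (5.94), an elongase of very long fatty acids, was uneven between BAT arrays, with 7.58, 7.20, 8.27 and 8.22 against 1.77 to 2.03 in eWAT. Acyl-CoA metabolism was represented by *Pank1* (5.83), a pantothenate kinase of coenzyme A synthesis, and *Acsm3* (5.81), a medium-chain acyl-CoA synthetase. *Adck3* (5.27) takes part in coenzyme Q synthesis. Membrane proteins were *Ntrk3* (5.53), the receptor of neurotrophin-3, *Otop1* (5.36), a proton channel, and *Lgr6* (5.11), a receptor of R-spondins. *S100b* (5.66), a calcium-binding protein, *Kng2* (5.33), a kininogen, *Pon1* (5.17), a paraoxonase, and *BC090627* (6.06) completed them. Each passed with an adjusted p of 3.5e-09 or lower.

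**Figure D1:**
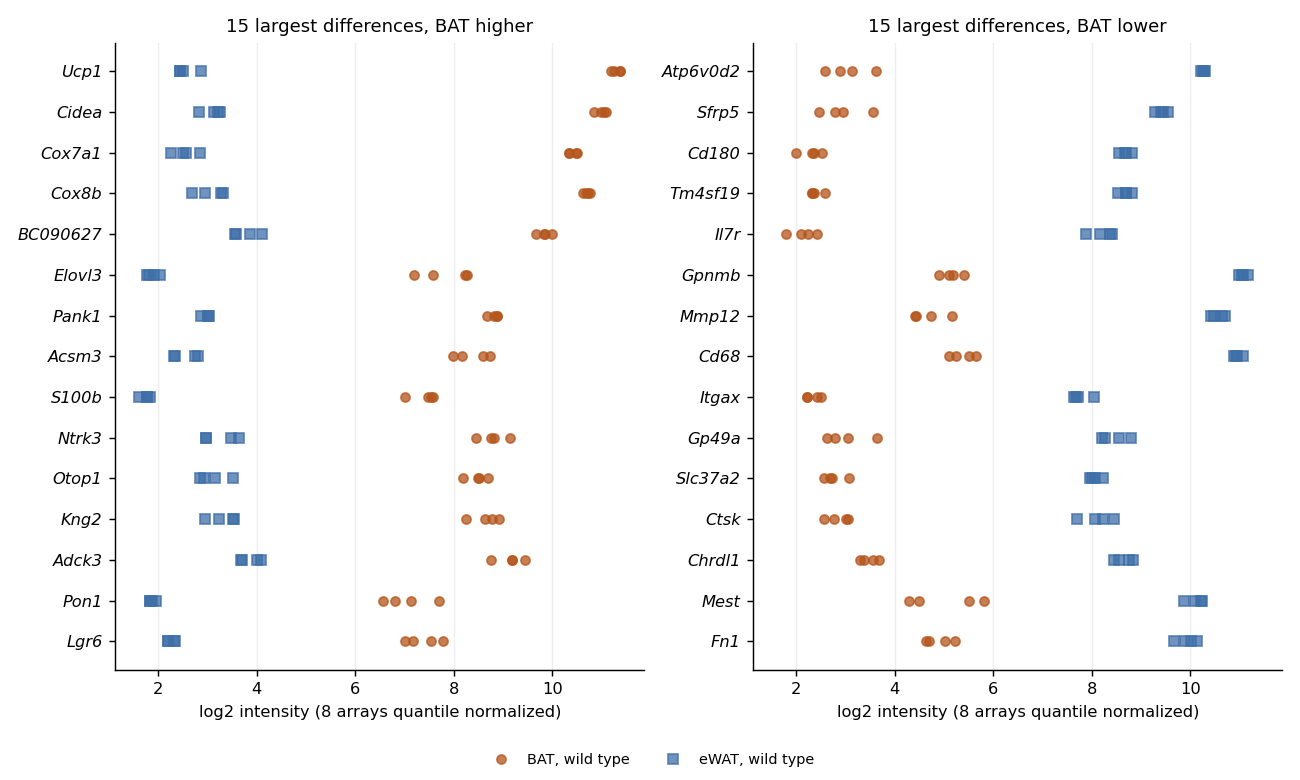
Log2 intensity (horizontal axis) of the 15 genes with the largest difference in each direction, with 1 point per array: circles for the 4 wild-type BAT arrays and squares for the 4 wild-type eWAT arrays. Circles and squares lie apart in all 30 genes; *Ucp1* sits between 11.19 and 11.38 in BAT and between 2.44 and 2.87 in eWAT.

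Of 21 measured thermogenic effector genes, 19 were at least 2-fold higher in BAT and 1 lower, with a median difference of 4.37. *Slc27a2* (4.73), a fatty acid transporter and acyl-CoA synthetase, was among them. *Dio2*, which makes active thyroid hormone in brown fat, differed by 2.22 and was uneven between mice, with 4.14, 5.17, 3.44 and 3.59 in BAT against 1.75 to 1.94 in eWAT. The exception was *Epsti1* (-1.15), with 3.70 to 4.57 in BAT and 4.91 to 5.62 in eWAT.

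Of 19 transcriptional regulators of brown fat, 17 passed the test toward BAT, 13 of them by 2-fold, and 2 passed toward eWAT. *Ppara*, the fatty acid-sensing nuclear receptor, differed most, with 7.96, 8.06, 7.83 and 7.91 in BAT against 2.96, 2.99, 3.00 and 2.76 in eWAT (difference 5.01, standard error 0.08). The coactivators of mitochondrial biogenesis followed: *Ppargc1a* measured 7.56 ± 0.54 against 3.46 ± 0.14 (means and SD, n = 4; difference 4.10) and *Ppargc1b* 7.22 to 7.90 against 3.45 to 3.70 (difference 4.11). The orphan receptor *Esrrg*, which acts on mitochondrial genes, differed by 2.91. *Prdm16*, the factor that sets brown identity, differed by 1.44, with 3.90 to 4.50 in BAT and 2.65 to 2.72 in eWAT. *Zfp516* (-0.61) and *Zbtb16* passed toward eWAT, both below 2-fold.

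Subunits of the respiratory chain, which makes the proton gradient that UCP1 dissipates, were mostly higher in BAT. Of 80 measured genes of complexes I to V, 76 passed toward BAT, 72 of them by 2-fold, and 2 toward eWAT, with a median difference of 2.26. All 35 measured subunits of complex I, NADH dehydrogenase, were at least 2-fold higher (median 2.41), from *Ndufa11* (1.47) to *Ndufc1* (3.36). All 13 measured genes of complexes II and III were too (median 3.00), from *Sdhc* (1.96) to *Uqcrfs1* (3.75), the Rieske iron-sulfur protein. *Ndufc1* measured 8.60, 8.50, 8.48 and 8.49 in BAT and 5.20, 5.04, 5.27 and 5.14 in eWAT, so the spread within a depot was small beside the gap.

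In complex IV, 13 of 16 genes were at least 2-fold higher in BAT (median 2.09), among them *Cox5b* (3.26). The ubiquitous isoform *Cox6a1* differed by 0.53, and *Cox6a2*, the heart and muscle isoform, did not pass (difference 0.88, adjusted p = 0.27). *Cox6a2* measured 2.30, 4.65, 5.70 and 2.42 in BAT, and the high values are those of the BAT arrays that also carry muscle transcripts, as given further below; without those arrays the difference was -0.55. In complex V, ATP synthase, 11 of 16 genes were at least 2-fold higher (median 1.52), the lowest median of the complexes, with *Atp5o* at 2.86. *Atpif1*, which encodes the inhibitor of ATP hydrolysis by this enzyme, went the other way: it measured 6.17, 5.78, 6.14 and 5.83 in BAT and 7.83, 7.84, 7.87 and 7.93 in eWAT (difference -1.89, standard error 0.10, adjusted p = 4.1e-08).

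Genes that express the mitochondrial genome were higher in BAT as well. Of 76 measured mitochondrial ribosomal protein genes, 69 passed toward BAT, 49 by 2-fold, and none toward eWAT (median 1.20), with *Mrps35* at 2.64 and *Mrps11* at 0.23 (adjusted p = 0.024, and 0.059 with the mouse number as a block). Of 16 genes for mitochondrial DNA and its expression, 13 passed toward BAT, 10 by 2-fold (median 1.34), from *Ssbp1* (0.43) to *Gfm1* (2.36), an elongation factor. By contrast, of 79 cytosolic ribosomal protein genes 20 passed toward BAT and 22 toward eWAT, with a median of 0.02. The largest of these in each direction were *Rpl22l1* (1.35) and *Rpl10a* (-1.65). Heme synthesis, which supplies the cytochromes, had 5 of 8 genes at least 2-fold higher (median 1.07), with *Alad* at 1.49, whereas *Cpox* (-0.34) was lower in BAT.

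All 13 measured TCA cycle genes were at least 2-fold higher in BAT (median 2.44), from *Mdh2* (1.53) to *Suclg1* (3.81). Of 18 genes of mitochondrial fatty acid oxidation, 17 were at least 2-fold higher (median 2.55). *Acadvl*, the very-long-chain acyl-CoA dehydrogenase, measured 9.90 to 9.96 in BAT and 5.41 to 5.83 in eWAT (difference 4.28). The exception was *Cpt1a*, the liver isoform of the enzyme that admits fatty acids to mitochondria, with 5.77, 6.61, 5.87 and 7.13 in BAT and 7.98 to 8.14 in eWAT (difference -1.73, standard error 0.25). The muscle isoform *Cpt1b*, which brown fat uses, was not analysed here.

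Transcripts for the breakdown of branched-chain amino acids were higher in BAT: 21 of 21 genes passed toward BAT, 18 by 2-fold (median 1.99). *Bckdha*, a subunit of the dehydrogenase that commits these amino acids to oxidation, differed by 2.94, and *Auh* by 0.25, close to the threshold (adjusted p = 0.049, and 0.059 with the mouse number as a block). Peroxisomal oxidation had 5 of 12 genes at least 2-fold higher (median 0.80), led by *Ehhadh* (2.94), while the peroxisomal fatty acid transporter *Abcd2* was lower in BAT (-0.86).

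Most genes of glucose use and fat synthesis stood higher as well. Of 28 genes of glucose use, 26 passed toward BAT, 17 by 2-fold (median 1.75). *Gpd2*, the mitochondrial glycerol phosphate dehydrogenase, differed by 4.65 and the lactate dehydrogenase subunit *Ldhb* by 4.17. The basal transporter *Slc2a1* (GLUT1) was lower in BAT, with 3.13 to 3.25 against 3.84 to 4.06. Of 14 lipogenic genes, 9 were at least 2-fold higher (median 1.65), led by *Acacb* (3.54), the acetyl-CoA carboxylase of the mitochondrial surface. *Fasn*, fatty acid synthase, measured 10.99, 10.03, 10.30 and 9.46 in BAT and 7.90, 7.05, 7.76 and 6.24 in eWAT, a difference of 2.96 with a standard error of 0.38, the depots apart in spite of a wide spread. The desaturase *Scd2* went toward eWAT (-1.66).

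The bases before the start sites of some of these genes show the letters that nuclear receptors and the nuclear respiratory factor NRF1 are known to read. The 250 bases before each start were searched on both strands in the RefSeq windows of 27025 mouse genes (GRCm38.p6) for 4 short motifs. The half-site AGGTCA, read by nuclear receptors such as PPARs and thyroid hormone receptors, stood in 15.8% of all genes and in 7 of the 15 thermogenic effectors that have a window (46.7%), among them *Epsti1*, which was lower in BAT. It stood in 10 of 66 genes of the respiratory complexes (15.2%), in 5 of 28 macrophage genes (17.9%) and in 4 of 11 lysosomal genes (36.4%), lists that moved in either direction. Its last letters can overlap the first of the E-box GTCACGTG, another of the motifs, given below. The *Ucp1* window is shown whole, with the motif in capitals, because this gene has the largest difference; those of *Ucp3* and *Slc27a2* are shown around their matches.
*Ucp1*, chr8:83290098-83290347, plus strand: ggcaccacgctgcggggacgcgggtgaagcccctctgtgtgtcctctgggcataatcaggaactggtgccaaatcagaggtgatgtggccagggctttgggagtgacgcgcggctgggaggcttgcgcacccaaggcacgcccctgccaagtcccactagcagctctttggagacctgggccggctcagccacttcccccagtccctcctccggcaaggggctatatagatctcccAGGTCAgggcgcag
*Ucp3*, chr7:100472827-100472967, plus strand: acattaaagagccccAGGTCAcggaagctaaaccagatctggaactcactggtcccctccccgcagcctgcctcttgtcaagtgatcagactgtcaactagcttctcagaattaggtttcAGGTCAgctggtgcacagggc
*Slc27a2*, chr2:126552789-126552824, plus strand: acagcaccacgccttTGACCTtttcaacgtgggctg
In *Ucp1* the half-site begins 14 bases before the annotated start, in *Ucp3* it occurs 2 times, and in *Slc27a2* it lies on the opposite strand. A match is a run of letters and not a measured binding site.

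The NRF1 motif, GCGCNTGCGC, stood in 4.23% of all genes and in 13 of 66 genes of the respiratory complexes with a window (19.7%), but in 0 of 15 thermogenic effectors and 0 of 28 macrophage genes. Lists of 15 and 28 genes are small for a motif this rare. In complex I, 5 of 31 genes with a window held it (16.1%), whereas all 35 measured subunits were at least 2-fold higher in BAT. The motif is shown for subunits of complexes I and II, in capitals with the bases around it.
*Ndufa8*, chr2:36049344-36049383, minus strand: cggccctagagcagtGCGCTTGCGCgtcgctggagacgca
*Ndufs6*, chr13:73328483-73328513, minus strand: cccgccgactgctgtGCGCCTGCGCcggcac
*Sdhd*, chr9:50603904-50603943, minus strand: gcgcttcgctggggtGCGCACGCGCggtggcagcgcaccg
*Ndufa8* differed by 1.57, *Ndufs6* by 2.63 and *Sdhd* by 3.00. *Atpif1*, which was lower in BAT, holds the motif too. *Nrf1* itself differed by -0.14 (adjusted p = 0.42).

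The members of the uncoupling family split. *Ucp3*, known from muscle and brown fat, was higher in BAT, with 7.96, 7.16, 7.70 and 7.69 against 4.90, 4.16, 4.80 and 4.46 (difference 3.05). *Ucp2*, which is abundant in macrophages, was lower, with 5.50 to 5.59 against 8.03 to 8.32 (difference -2.58). *Slc25a30* (-1.45) and *Slc25a14* (-0.27) were lower as well, and *Slc25a27* did not pass (difference 0.02, adjusted p = 0.85). With the values as deposited, *Slc25a27* passed toward eWAT (-0.40).

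The creatine cycle, a UCP1-independent route of heat production, did not move as a block: 2 of 7 genes were at least 2-fold higher in BAT and 3 lower. *Alpl*, the phosphatase assigned to this cycle, differed by 1.70, while *Gamt* (-2.05), which makes creatine, was lower. *Ckmt2*, the mitochondrial creatine kinase of muscle, measured 1.88, 4.08, 5.06 and 2.02 in BAT and 1.55 to 1.69 in eWAT, a difference of 1.62 that rests on the BAT arrays with muscle transcripts; without them it was 0.31. Of 7 calcium cycle genes, 3 were at least 2-fold higher in BAT, with *Itpr2*, an inositol trisphosphate receptor, at 2.40 and *Camk2d* at -0.76.

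Of 25 genes of adrenergic and cAMP signalling, 18 passed toward BAT, 10 of them by 2-fold (median 0.72). *Adrb1*, the beta-1 receptor, measured 6.34, 6.78, 6.68 and 7.35 in BAT and 3.02, 3.32, 3.77 and 3.92 in eWAT (difference 3.28). *Adra1a*, an alpha-1 receptor, differed by 3.10 (5.74 to 5.98 against 2.67 to 2.79). The adipocyte receptor *Adrb3* differed by less, 0.98, with 6.40, 7.30, 6.82 and 6.77 against 6.37, 5.31, 5.85 and 5.86, where the lowest BAT array and the highest eWAT array almost meet. *Adcy5*, an adenylyl cyclase, and *Gpr81*, the lactate receptor, were lower in BAT by -2.81 and -1.32. *Gpr146* itself did not pass: 5.41, 5.64, 5.59 and 5.82 in BAT and 5.08, 5.57, 5.29 and 5.82 in eWAT (difference 0.18, standard error 0.15, adjusted p = 0.35).

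Genes that all adipocytes share gave smaller differences. *Adipoq*, adiponectin, measured 8.03 to 8.24 in BAT and 7.78 to 8.19 in eWAT (difference 0.15, adjusted p = 0.23), and *Fabp4*, the adipocyte fatty acid-binding protein, 11.45 in every BAT array and 11.38 to 11.49 in eWAT. After quantile normalization a value follows from the rank of a gene in its array, so equal values stand for equal ranks. Of 20 genes that adipocytes share, 9 were at least 2-fold higher in BAT and none lower (median 0.78), from *Gpam* (2.56), the acyltransferase that starts triglyceride synthesis, to *Aoc3* (-0.85).

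White fat adipokines and markers separated the depots: 12 of 16 were at least 2-fold lower in BAT (median -1.94). Leptin, *Lep*, measured 7.10, 7.34, 6.13 and 6.63 in BAT and 10.25, 10.55, 10.31 and 10.30 in eWAT (difference -3.55, 11.7-fold). *Sfrp5*, an inhibitor of Wnt signalling, measured 3.56, 2.79, 2.95 and 2.46 against 9.27 to 9.55 (difference -6.48), and *Mest*, an imprinted gene tied to fat expansion, 4.29 to 5.81 against 9.87 to 10.24 (difference -5.08). *Nampt*, an enzyme of NAD synthesis that is also secreted, went the other way (2.08). Of 12 factors that brown fat is said to secrete, 3 were at least 2-fold higher in BAT, namely *Ptgds* (2.64), *Nrg4* (2.47) and *Vegfa* (1.65), and 3 lower, led by *Metrnl* (-2.60).

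Depots lie in different parts of the body, and many transcription factors of body position differ between them in development. Of 39 Hox genes, 3 were at least 2-fold higher in BAT (7.69%) and 1 lower (2.56%), no larger a share than the 7.69% and 8.61% over all genes, with a median of 0.15. Those higher belong to the anterior groups: *Hoxa4* (5.42 to 6.13 against 3.09 to 3.49, difference 2.42), *Hoxa5* (1.93) and *Hoxc4* (1.77). The one lower, *Hoxc8*, lies further back in its cluster; it measured 4.84, 5.96, 6.36 and 4.85 in BAT and 6.84 to 7.13 in eWAT (difference -1.48). The higher BAT values of *Hoxc8* are again those of the arrays with muscle transcripts, and without them the difference was -2.12.

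Of 20 other positional factors, 5 were at least 2-fold higher and 4 lower in BAT. *Zic1*, a marker of dorsal mesoderm and classical brown fat, measured 4.76, 4.65, 3.83 and 4.51 in BAT and 1.64 to 1.87 in eWAT (difference 2.67). *Tbx5* (2.29), *Lhx8* (2.24) and *Tbx15* (1.44) were higher with it; *Tbx15* measured 2.63, 3.79, 3.95 and 3.19 in BAT, and 0.99 was its difference without the arrays with muscle transcripts. *Gata6* (-2.65), *Wt1* (-1.94), *Prrx1* (-1.76) and *Tcf21* (-1.62), factors of visceral mesoderm, mesothelium and stroma, were lower in BAT. *Wt1* measured 2.79 to 2.90 against 4.44 to 4.99.

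**Figure D2:**
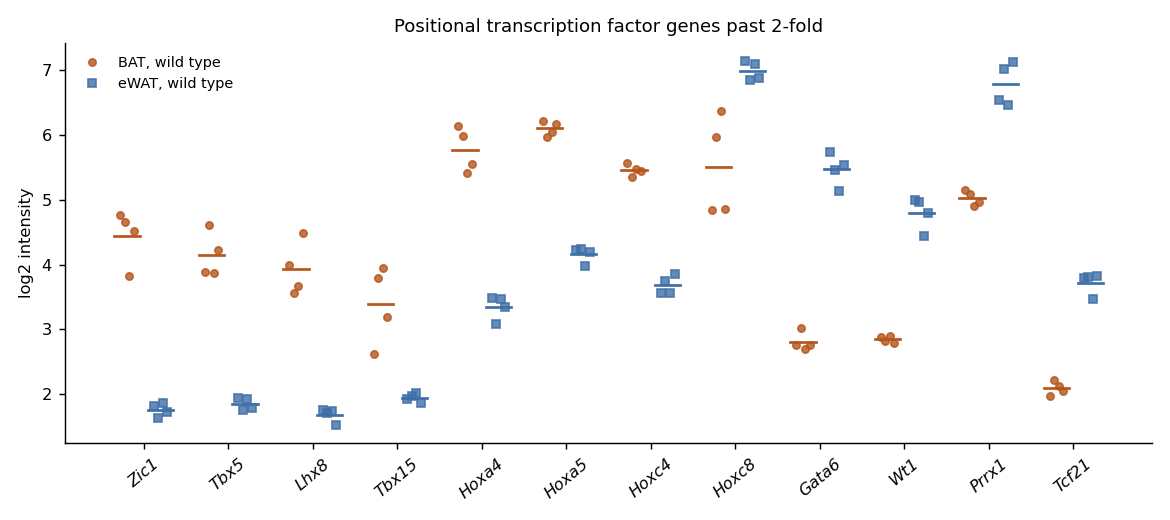
Log2 intensity (vertical axis) of 12 of the positional transcription factor genes that differed by at least 2-fold, with a point per wild-type array and a bar at the mean of 4; circles are BAT and squares eWAT. The points of the depots lie apart in each gene, and the BAT points of *Hoxc8* and *Tbx15* are the most spread.

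Of the 15 largest differences toward eWAT, 8 were members of the macrophage lists. *Atp6v0d2*, a subunit of the proton pump of lysosomes made by macrophages and osteoclasts, measured 10.21, 10.29, 10.28 and 10.25 in eWAT and 3.61, 2.89, 2.59 and 3.13 in BAT (difference -7.20, standard error 0.18, 147-fold). *Gpnmb*, a glycoprotein of lipid-laden macrophages, measured 10.99, 11.16, 11.04 and 11.07 against 5.18, 4.91, 5.09 and 5.40 (difference -5.92). *Cd68*, a lysosomal glycoprotein that marks macrophages, measured 10.95, 10.88, 11.07 and 10.93 against 5.64, 5.10, 5.24 and 5.50 (difference -5.59). The depots were far apart in each of these genes, and the mice of a depot close together.

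Among the 15 largest were also *Cd180* (-6.38), a Toll-like receptor relative of B cells and myeloid cells, *Tm4sf19* (-6.29), *Il7r* (-6.07), the interleukin-7 receptor, *Mmp12* (-5.88), macrophage elastase, *Itgax* (-5.43), the integrin CD11c, *Gp49a* (-5.42), a myeloid receptor, *Slc37a2* (-5.31), a sugar-phosphate transporter of macrophages, and *Ctsk* (-5.26), cathepsin K. The others were *Sfrp5*, *Mest*, *Chrdl1* (-5.17), a BMP antagonist, and *Fn1* (-5.04), fibronectin.

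All 18 measured macrophage markers were at least 2-fold lower in BAT (median 8.02-fold), from *Mertk* (-1.31) to *Cd68*. *Emr1*, which encodes F4/80, measured 4.44, 4.29, 5.67 and 4.47 in BAT and 8.66, 8.68, 9.07 and 8.79 in eWAT (difference -4.08); the receptor *Csf1r* differed by -2.75 and the mannose receptor *Mrc1* by -2.93. Of 18 genes of lipid-associated macrophages, 16 were at least 2-fold lower (median -3.30). *Trem2*, the lipid receptor of these cells, measured 3.40 to 3.77 against 8.43 to 8.58 (difference -4.84). *Acp5* did not pass (-0.07, adjusted p = 0.56), and *Ocstamp* passed at -0.47.

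Of 16 lysosomal genes, 15 passed toward eWAT, 11 by 2-fold (median -1.28). *Ctss*, cathepsin S, differed by -3.91 and *Lamp1*, a membrane protein of every lysosome, by -0.37; *Lamp1* was higher in BAT by 0.15, short of the threshold, with array medians made equal or arrays centred on ribosomal genes. Of 22 chemokines, 9 were at least 2-fold lower in BAT, led by *Ccl9* (-4.54), and *Cx3cl1* was higher (1.09). Of 10 MHC class II genes, 10 passed toward eWAT, 6 by 2-fold, with *H2-Ab1* at -2.51 and *H2-Oa* at -0.19 (adjusted p = 0.044, and 0.074 with the block on mouse number). Lymphocyte markers differed less as a list, with 3 of 16 at least 2-fold lower in BAT (median -0.38). Of this list, *Il7r* (-6.07) was among the 15 largest differences toward eWAT. *Foxp3*, of regulatory T cells, was higher in BAT (0.24, adjusted p = 0.034, and 0.053 with that block), with overlapping ranges of the depots. All 15 cell cycle genes passed toward eWAT, 11 by 2-fold (median -1.37): *Mki67*, the proliferation marker, measured 5.92 to 6.59 in eWAT and 2.25 to 2.50 in BAT (difference -3.86), and *Pbk* differed by -0.49. Which cells carry these cell cycle transcripts was not tested.

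Motifs of factors known from these cells were searched in the same windows. The PU.1 motif GAGGAAGT stood in 2.79% of all genes and in 4 of 28 macrophage genes with a window (14.3%). It stood in 3 of 66 genes of the respiratory complexes (4.55%), 0 of 15 thermogenic effectors and 0 of 11 lysosomal genes. The E-box GTCACGTG of the MiT/TFE factors, which drive lysosomal genes, stood in 2.11% of all genes and in 3 of 11 lysosomal genes (27.3%). It stood in 1 of 15 thermogenic effectors (6.67%), 2 of 66 genes of the respiratory complexes (3.03%) and 1 of 28 macrophage genes (3.57%). Matches are shown in capitals, where a run that reads the other way lies on the opposite strand.
*Mmp12*, chr9:7344294-7344331, plus strand: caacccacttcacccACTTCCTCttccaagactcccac
*Spp1*, chr5:104434983-104435020, plus strand: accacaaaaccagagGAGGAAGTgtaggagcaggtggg
*Ctsd*, chr7:142387903-142388077, minus strand: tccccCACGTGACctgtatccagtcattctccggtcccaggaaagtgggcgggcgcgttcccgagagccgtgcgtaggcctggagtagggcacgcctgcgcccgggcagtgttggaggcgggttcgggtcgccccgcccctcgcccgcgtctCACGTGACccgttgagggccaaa
*Lamp1*, chr8:13159118-13159155, plus strand: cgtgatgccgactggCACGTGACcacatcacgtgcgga
*Spp1*, osteopontin, differed by -3.17 and *Ctsd*, cathepsin D, whose window holds the E-box 2 times, by -1.21. *Mitf*, a member of the MiT/TFE family, measured 4.53 to 4.73 in BAT and 6.28 to 6.53 in eWAT (difference -1.77). The other genes of this family and the gene of PU.1 are not given here.

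All 20 matrix genes other than collagens passed toward eWAT, 18 by 2-fold (median -2.48). *Fn1* measured 4.69, 5.01, 5.22 and 4.64 in BAT and 10.13, 9.90, 9.67 and 10.01 in eWAT, and *Fap*, a protease of activated fibroblasts, differed least (-0.54). Of 18 collagens, 13 were at least 2-fold lower in BAT (median -1.54), from *Col14a1* (-3.23) upward, with *Col1a1* at -2.30; *Col27a1* was higher (1.73). Of 12 progenitor markers, 7 were at least 2-fold lower (median -1.06): *Dpp4* (-2.37), of early progenitors, and *Pdgfra* (-2.32), with 5.70 to 5.98 against 8.08 to 8.19, but *Dlk1* was higher (0.50).

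Mesothelial markers were at least 2-fold lower in 10 of 13 genes (median -1.76), and they varied between the eWAT arrays. *Upk3b* measured 8.17, 7.29, 6.32 and 7.08 in eWAT and 2.64 to 2.89 in BAT (difference -4.42), and *Msln*, mesothelin, 5.60, 4.73, 4.14 and 4.77 against 2.25 to 2.51. The mean over the 13 genes was 5.29, 4.69, 4.05 and 4.65 in eWAT and 2.75 to 2.83 in BAT, and eWAT array 3 was the lowest and eWAT array 1 the highest in each of these. *Krt19* differed least among those that passed (-1.22). Markers of the epididymis, the organ to which eWAT is attached, differed by 2-fold in 0 of 13 genes (median 0.02), with means of 1.98 to 2.02 in eWAT and 1.98 to 2.13 in BAT, and *Lcn8* (0.49) and *Rnase10* (-0.19, adjusted p = 0.036, and 0.062 with the block on mouse number) were the largest in each direction.

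**Figure D3:**
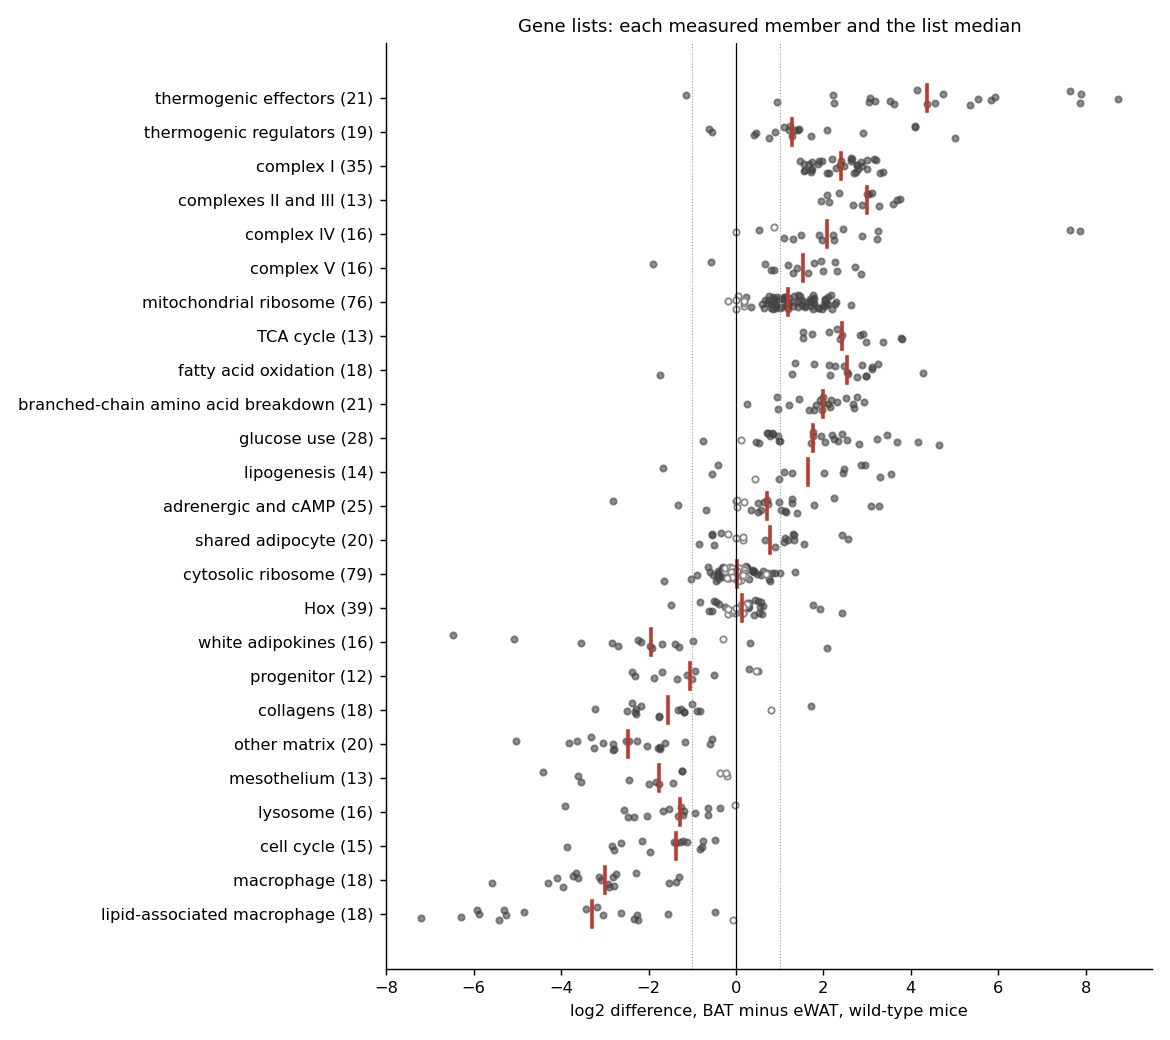
Log2 difference of BAT minus eWAT (horizontal axis) for every measured member of 25 gene lists; filled points passed the test at an adjusted p below 0.05, open points did not, red bars are list medians, numbers in parentheses count measured members and dotted lines mark 2-fold. The mitochondrial lists lie right of 0, with medians of 1.20 to 3.00, the macrophage and matrix lists left of it, and cytosolic ribosomal genes around it (median 0.02).

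Skeletal muscle transcripts were present in 2 BAT arrays. The mean over 18 muscle genes was 3.09, 6.26, 7.14 and 3.10 in the 4 BAT arrays and 2.53 to 2.76 in eWAT. *Myh4*, a fast myosin, measured 3.57, 8.34, 8.98 and 2.70 in BAT (difference 4.11), and *Ckm*, the cytosolic creatine kinase of muscle, 2.93, 4.71, 5.49 and 3.13 (difference 1.44). Over all 8 arrays 10 of the 18 were at least 2-fold higher in BAT (median 2.14); without BAT arrays 2 and 3 there were 4 and the median was 0.39. Myoglobin, *Mb*, differed by 3.03 even without these arrays, with 5.43 and 5.66 in the others against 2.44 to 2.63 in eWAT. Without BAT arrays 2 and 3, 1984 genes were at least 2-fold higher and 2158 lower in BAT, complex I kept 35 of 35 and the thermogenic effectors 19 of 21, with a median of 4.01.

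Nerve sheath and vessel markers were mixed. Of 8 Schwann cell genes, 3 were at least 2-fold higher in BAT, among them *S100b* (5.66) and *Cdh19* (2.31), while *Pmp22* was lower (-2.22). Of 14 endothelial markers, 0 differed by 2-fold (median 0.09), from *Cdh5* (-0.95) to *Flt1* (0.88). Genes often used as internal controls were not alike between depots: of 12, 3 were at least 2-fold higher and 6 lower in BAT, among them *Actb* (-1.15), *Gusb* (-3.11), a lysosomal enzyme, *Pgk1* (2.03) and *Tfrc* (1.82), whereas *Rplp0* did not pass (-0.04, adjusted p = 0.79).

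**Figure D4:**
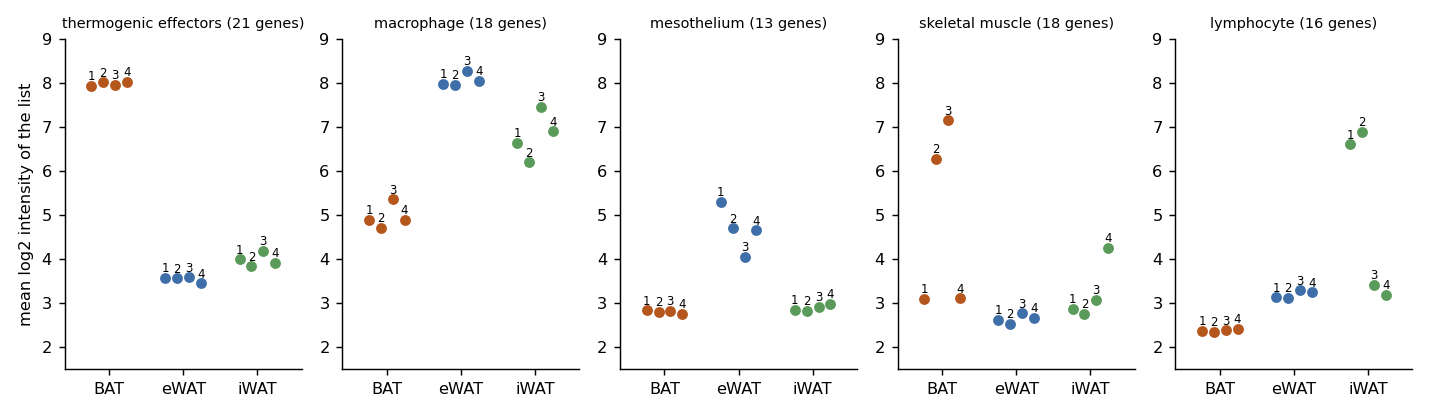
Mean log2 intensity of 5 marker lists (vertical axis) in each wild-type array of BAT, eWAT and iWAT, quantile normalized over the 8 arrays for BAT and eWAT and over 12 arrays for iWAT; each point is an array with its replicate number. BAT arrays 2 and 3 are high in muscle genes (6.26 and 7.14), the eWAT arrays alone are high in mesothelial genes (4.05 to 5.29), and iWAT arrays 1 and 2 are high in lymphocyte genes (6.60 and 6.88).

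The 8 arrays of *Gpr146* knockouts give the depot difference in other animals. *Gpr146* itself was 5.02 to 5.76 in the wild-type and 3.44 to 4.95 in the knockout arrays of these depots after joint scaling of the 16 arrays, with no overlap. On that scale the mean of the macrophage markers was 7.75 in knockout eWAT array 2 and 5.84, 6.63 and 6.06 in arrays 1, 3 and 4, beside 7.90 to 8.24 in wild-type eWAT. The genes of lipid-associated macrophages had a mean of 6.99 in that array and of 4.77, 5.79 and 4.97 in the others, beside 7.38 to 7.53. Knockout BAT array 2 had a muscle mean of 7.39, against 2.98, 3.72 and 3.09 in the other three. In the knockouts, 1596 genes (6.48%) were at least 2-fold higher and 1657 (6.72%) lower in BAT. Of the 1896 genes higher in wild-type BAT by 2-fold, 1346 (71.0%) were so in the knockouts and 4 passed the other way; of the 2121 lower, 1334 (62.9%) were so and 1 passed the other way. Without knockout eWAT array 2 these shares were 67.6% and 55.6%, and without knockout BAT array 2 they were 71.7% and 63.0%. The median of the former was 1.54 in wild-type and 1.32 in knockout mice, and that of the latter -1.66 and -1.23. The wild-type arrays chose these genes and enter the interaction test below.

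*Ucp1* differed by 8.70 in the knockouts and *Cox7a1* by 8.03, and the respiratory complexes had a median of 1.89 there against 2.26. The macrophage lists together had a median of -1.86 in the knockouts against -3.11 in the wild type, and the collagen and matrix lists -1.26 against -2.11. Without knockout eWAT array 2 the knockout medians were -1.47 for the macrophage lists, -1.09 for the collagen and matrix lists and 1.84 for the respiratory complexes. Without knockout BAT array 2 they were -2.01, -1.24 and 1.85. A test of the interaction itself passed for 1574 genes (6.39%), with 820 where BAT minus eWAT was higher in the knockouts and 754 where it was lower. Without wild-type BAT arrays 2 and 3, 115 and 152 genes passed, and without knockout eWAT array 2 there were 1694 and 1552. Leaving out any of the 16 arrays in turn gave 408 to 1694 and 410 to 1552. Of the 36 genes of the macrophage lists, 11 passed the interaction test, 30 without knockout eWAT array 2, 6 without knockout BAT array 2, 1 without wild-type BAT arrays 2 and 3, and 26 with the mouse number as a block. Among genes that all adipocytes share, 15 of 20 passed it, and their median was -0.35 in the knockouts against 0.78. Without knockout eWAT array 2 the count was 16 and the knockout median -0.44, without knockout BAT array 2 they were 13 and -0.33, and 8 passed without wild-type BAT arrays 2 and 3. *Adrb3*, which belongs to the adrenergic and cAMP list and not to that one, had a BAT minus eWAT of 0.98 in the wild type. In the knockouts it was -2.39 (interaction -3.35, adjusted p = 0.0032).

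**Figure D5:**
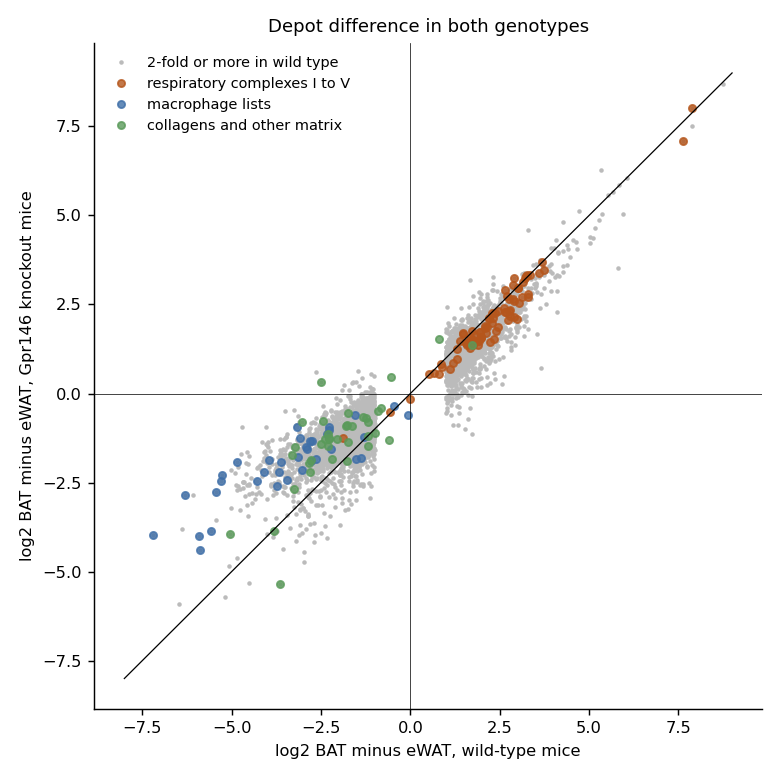
Log2 difference of BAT minus eWAT in wild-type mice (horizontal axis) and in *Gpr146* knockouts (vertical axis), 8 arrays each; grey points are genes that differed by at least 2-fold in the wild type, coloured points are members of the lists named in the key, and the diagonal marks equal values. The respiratory genes have a median of 2.26 in wild-type and 1.89 in knockout mice, and the median of the macrophage lists is -3.11 in wild-type and -1.86 in knockout mice.

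Wild-type iWAT, a subcutaneous white depot, was set beside the others after joint scaling of 12 arrays; it shares the eWAT arrays with the comparison above. Between iWAT and eWAT, 9459 genes (38.4%) passed, or 8002 without iWAT arrays 1 and 2, and the split by direction depends on the scaling. *Ucp1* was higher in iWAT than in eWAT by 1.08, against 8.73 in BAT, and the thermogenic effectors had a median of 0.09 in iWAT minus eWAT. Complex I had a median of 0.06 there. Without iWAT arrays 1 and 2 the value of *Ucp1* was 1.08, and the medians were 0.14 and 0.10. *Lep* (-0.03), *Mest* (-0.03) and *Chrdl1* (-0.01) did not pass between the white depots, nor without those arrays (0.0049, 0.22 and 0.26). *Sfrp5* differed by -0.58 (adjusted p = 0.033); it did not pass without those arrays (-0.40, adjusted p = 0.20) or with the mouse number as a block (adjusted p = 0.055). Macrophage genes were lower in iWAT than in eWAT: *Atp6v0d2* by -4.71, *Tm4sf19* by -4.93 and *Gpnmb* by -3.52, with a list median of -1.66 for the macrophage markers. Without iWAT arrays 1 and 2 these genes differed by -4.40, -4.88 and -2.90, and the list median was -0.91. Mesothelial genes had a median of -1.74 in iWAT minus eWAT, beside -1.76 in BAT minus eWAT, and of -1.56 without iWAT arrays 1 and 2. Lymphocyte markers were high in iWAT arrays 1 and 2 alone, and without those arrays the median of that list in iWAT minus eWAT was 0.15 in place of 1.89. *Tbx15* was higher in iWAT than in eWAT (2.53, and 2.84 without those arrays).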

How the data were processed

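Each depot of each mouse gave RNA for 1 Affymetrix Mouse Gene 2.1 ST array. The authors deposited log2 values per gene in a table for each tissue; the software and normalization behind them are not given in the sources used here. The tables were joined by gene symbol over 24646 genes, and the 8 arrays were quantile normalized together. No symbol was repeated among the genes joined, and 840 genes carried a probe set ID with a decimal point. Differences of BAT minus eWAT were tested with limma 3.58.1 in R 4.3.3 with an empirical Bayes fit on the 8 arrays, with the Benjamini-Hochberg correction across the whole table and a threshold of 0.05. Knockout and interaction fits used the knockout arrays of the same depots, and iWAT was scaled with the others. Groups came from the labels, which also number the mouse of each array. Deviations of same-numbered BAT and eWAT arrays from their depot means correlated with r of 0.096, 0.037, 0.016 and 0.086 across genes, and those of differently numbered arrays with -0.063 to 0.031. The fit has no mouse term, and a fit with the mouse as a replicate block was an alternative.

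Members and gene lists were chosen with earlier results of these data known. Named genes were the 15 with the largest difference in each direction among those past the threshold and apart in every array, the extremes of each list and its members of opposite direction, the Ucp family, *Gpr146*, positional genes past 2-fold, and further list members chosen after their values were seen. *Mitf*, which is in no list, was added in the same way. On simulated data with 200 changed genes of 24646, 51.5% of those changed by 0.5 on the log2 scale were called, 95.5% of those changed by 1 and 100% of those changed by 2, with 11 false calls. The simulation changed few genes, in both directions and with independent noise, whereas 56.8% of genes passed in the wild-type comparison. These rates therefore need not hold for the real data. The alternatives were other scalings, ranks, array weights, the methods' t-test, a filter on dim genes, a replicate block and leaving out each array. Figures were drawn with matplotlib 3.10.9. Sequences came from RefSeq (GRCm38.p6). Some members of the lists are counted but not reported here by name.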

Additional observations from a re-analysis of the deposited data

Results flagged for a closer look

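In some groups of 4 arrays, 1 array stood apart from the other three, measured as its gap to the nearest of them over the whole range. In eWAT this ratio was 0.86 for *Ucp1*, 0.895 for *Pank1*, 0.839 for *Itgax*, 0.89 for *Slc25a27*, 0.942 for *Tcf21*, 0.952 for *Rnase10*, 0.869 for *Ccl9* and 0.905 for *Ppargc1a*. In BAT it was 0.842 for *Tm4sf19*, 0.83 for *Ndufc1*, 0.887 for *Fap*, 0.831 for *Ctss*, 0.951 for *Trem2* and 0.876 for *Emr1*. These are 14 of the 308 groups searched (4.55%), and chance alone gives such a ratio in about 1 of 20 groups. The array apart was eWAT array 2 for *Ucp1* (2.87, the others 2.44 to 2.50) and BAT array 3 for *Emr1* (5.67, the others 4.29 to 4.47).

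The depot difference, BAT minus eWAT, differed between genotypes at an adjusted p below 0.05 (limma, interaction) in the following genes named above; values are knockout minus wild type on the log2 scale. It was higher in knockouts for *Cd180* (2.45), *Tm4sf19* (3.31), *Slc37a2* (2.73), *Ctsk* (2.87), *Upk3b* (1.5), *Col14a1* (1.6), *Fap* (1.0), *Gusb* (1.57), *Ctsd* (0.694) and *Spp1* (2.11). It was lower in knockouts for *Ucp3* (-1.2), *Acadvl* (-0.932), *Abcd2* (-0.943), *Bckdha* (-1.41), *Auh* (-0.445), *Acacb* (-1.92), *Gpam* (-2.31), *Aoc3* (-0.845), *Nrg4* (-1.5), *Vegfa* (-1.47), *Adrb1* (-1.39), *Flt1* (-0.914), *Ppargc1a* (-1.76), *Adipoq* (-0.851), *Adrb3* (-3.35), *Plin1* (-1.19) and *Ldhb* (-0.91). The adjusted p-values lay between 0.0032 and 0.0453. Over all genes, 115 passed as higher and 152 as lower in knockouts without BAT arrays 2 and 3, in place of 820 and 754. Of the 27 genes listed here, 7 passed without those arrays, 17 without knockout BAT array 2, 27 without knockout eWAT array 2 and 25 with the mouse number as a block, and all 27 kept their direction in these. The exceptions with the block were *Abcd2* (adjusted p = 0.073) and *Auh* (adjusted p = 0.071). Other named genes passed only with the block, at adjusted p-values from 0.010 to 0.047. Higher in knockouts were *Atp6v0d2*, *Gpnmb*, *Cd68*, *Itgax*, *Gp49a*, *Trem2*, *Emr1*, *Csf1r*, *Mrc1*, *Ccl9* and *Mki67*. So were *Fn1*, *Col1a1*, *Pdgfra*, *Dpp4*, *Pmp22*, *Lep*, *Ucp2* and *Atpif1*. Lower in knockouts were *Mdh2*, *Gpd2*, *Gpr81*, *Hoxc4*, *Ppargc1b* and *Fasn*.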

How the results depend on the processing

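As deposited, with no joint scaling, 3789 genes were higher and 12125 lower in wild-type BAT (2-fold 1129 and 3386; share higher among calls 23.8%, against 53.4%). The knockout counts were then 2838 and 10735 (2-fold 1005 and 2869), iWAT against eWAT 12511 and 2444, and BAT against iWAT 1981 and 18400. With equal array medians the latter pairs were 2574 and 11921, and 13518 and 4021. With dim genes left out, 5007 genes were higher and 4318 lower in wild-type BAT. This filter tests only genes at or above the median level, so fewer genes can pass. The share higher among calls was then 53.7%. Interaction counts were 468 lower as deposited, 154 and 256 on ranks, and 115 and 152 without BAT arrays 2 and 3, which was chosen after seeing the data; leaving out each array gave 408 to 1694 and 410 to 1552, with moves of over 1.5 times without wild-type array 2 or 4 of either depot, knockout BAT array 1 or 2, or knockout eWAT array 1, 2 or 4. Leaving out each array of the wild-type comparison gave 6881 to 7316 higher and 6074 to 6373 lower. Of single genes, *Slc25a27* (-0.40), *Auh* (-0.24), *Ssbp1* (-0.066) and *Mrps11* (-0.25) reversed as deposited, *Lamp1* with equal medians (0.15) or ribosomal centring (0.15), and *Cox6a2* (-0.55) without BAT arrays 2 and 3; the cause was not tested. Of 3086 values of 155 named genes under the alternatives, 2992 kept direction and side of the threshold. With the mouse number as a replicate block, 7313 genes were higher and 6374 lower in wild-type BAT, and 963 and 808 in the interaction; besides the genes given with their blocked values, the block changed no call of a named gene in the wild-type BAT and eWAT comparison. Signal over background is unknown, which limits the low values.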
